A study of Mus musculus with 35 samples.

Results

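S100a8, S100a9, Cxcl1, Cxcl2, Cxcr2, Csf3r, Mpo, Ly6g and Retnlg are 9 mouse genes that are read as signs of neutrophils or that steer them, and they were taken by name from the 21203 genes of the deposited expression table. Bulk RNA-seq was made from a piece of left hemisphere about 2 mm around an injection site, and 34 of the 35 libraries were analysed here. All mice were male C57BL/6NCrl, 8 to 9 weeks old at the start. Every group but Sham received a closed head injury, and on day 5 the injured mice were injected into the left hippocampus with PBS, with naïve bone-marrow mesenchymal stromal cells (MSCs) of the same strain bought from a vendor, or with the same cells transfected with synthetic IL-4 mRNA (IL-4 MSCs). Brains were taken after perfusion at 1 week post injury (1 wpi, 2 days after the injection) or at 3 wpi (16 days after it). There were 5 mice per group, except for 4 in the PBS group at 3 wpi. No sequenced group received cells transfected with another mRNA. In any comparison of IL-4 MSCs with another group, IL-4 therefore cannot be told apart from transfection itself. The 5 Sham mice, 2 killed with the first time point and 3 with the second, had neither injury nor injection, so that injury and injection cannot be told apart in any comparison with Sham. Each library held the RNA of the whole tissue piece, in which fewer cells of a type and less RNA per cell cannot be told apart.

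Neutrophils are short-lived white blood cells that leave the bone marrow under the control of G-CSF, the ligand of the receptor encoded by Csf3r, and enter inflamed tissue along gradients of the chemokines CXCL1 and CXCL2, which they sense through CXCR2. S100A8 and S100A9 pair to form calprotectin, the main cytosolic protein of the neutrophil, which is also made by monocytes and acts as an alarm signal once released. Myeloperoxidase (Mpo) is an enzyme of the primary granules whose mRNA is made mostly in marrow precursors, Ly6g encodes the surface protein by which mouse neutrophils are usually sorted, and Retnlg encodes a small secreted protein of the resistin family that is abundant in mouse neutrophils. After brain trauma neutrophils arrive in the first days and then decline.

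Depth ran from 29838423 to 41554322 estimated counts per library, so that a floor of 3 counts stood at 0.0722 to 0.101 CPM (counts scaled by each library's own total, in units of 1e-06 of it). Several of the 9 genes lay at or near that floor, which covers counting error only. Ly6g had 3 counts or fewer in 34 of 34 libraries, Cxcl2 in 25, Retnlg in 19, Cxcl1 in 14, S100a8 in 5 and S100a9 in 3. By contrast, Mpo, Cxcr2 and Csf3r passed it in every library. Cxcl1 and Retnlg were at the detection level (most libraries at 3 counts or fewer) in Sham and in the 3 groups at 3 wpi, and Cxcl2 in those groups and in the MSCs group at 1 wpi. S100a8 was at that level only in the MSCs group at 3 wpi, and near it (a median of 10 counts or fewer) in Sham and in the other 2 groups at 3 wpi. S100a9 was near it after MSCs and after IL-4 MSCs at 3 wpi, Cxcl2 after PBS at 1 wpi, and Retnlg after PBS and after MSCs at 1 wpi. In the edgeR quasi-likelihood fit of all 34 libraries, 17131 genes passed the filter on low counts, among them 8 of the 9, and Ly6g did not pass it. Outside the IL-4 MSCs group at 1 wpi, too few libraries held enough Retnlg or Cxcl2 to pass the filter. Both were thus tested because of the group where they were raised, and every count out of 8 below includes them and is a description. Adjusted p-values below are from that fit, with the Benjamini-Hochberg adjustment over the 17131 genes of each comparison and 0.05 as the threshold.

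A few libraries stood apart from the others of their group. PBS replicate 3 and MSCs replicate 3 at 1 wpi each held by far the most Cxcl2, S100a8 and S100a9 of their own group, MSCs replicate 5 at 3 wpi stood clear of its group for S100a8, S100a9, Cxcl1, Csf3r and Retnlg, and Sham replicate 5 was the highest Sham library for S100a8, S100a9, Cxcl1, Csf3r and Retnlg. The labels of the injured libraries among these do not differ from those of their group. Sham replicate 5 shares its label with Sham replicates 1 and 2, killed with the second time point, and not with replicates 3 and 4. The libraries were picked after the values of these genes were seen, and several results that rest on them are given with and without them. Tissue content also varied. Summed striatal markers ran from 97.0 to 467 CPM within Sham alone, whereas cortical markers ran from 385 to 479 CPM there. Striatal markers also differed by group, from a mean of 177 CPM after PBS at 1 wpi and 184 CPM after PBS at 3 wpi to 864 CPM (186 to 1415 CPM) after IL-4 MSCs at 3 wpi, and the part of this in the results was not tested.

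**Figure D1:**
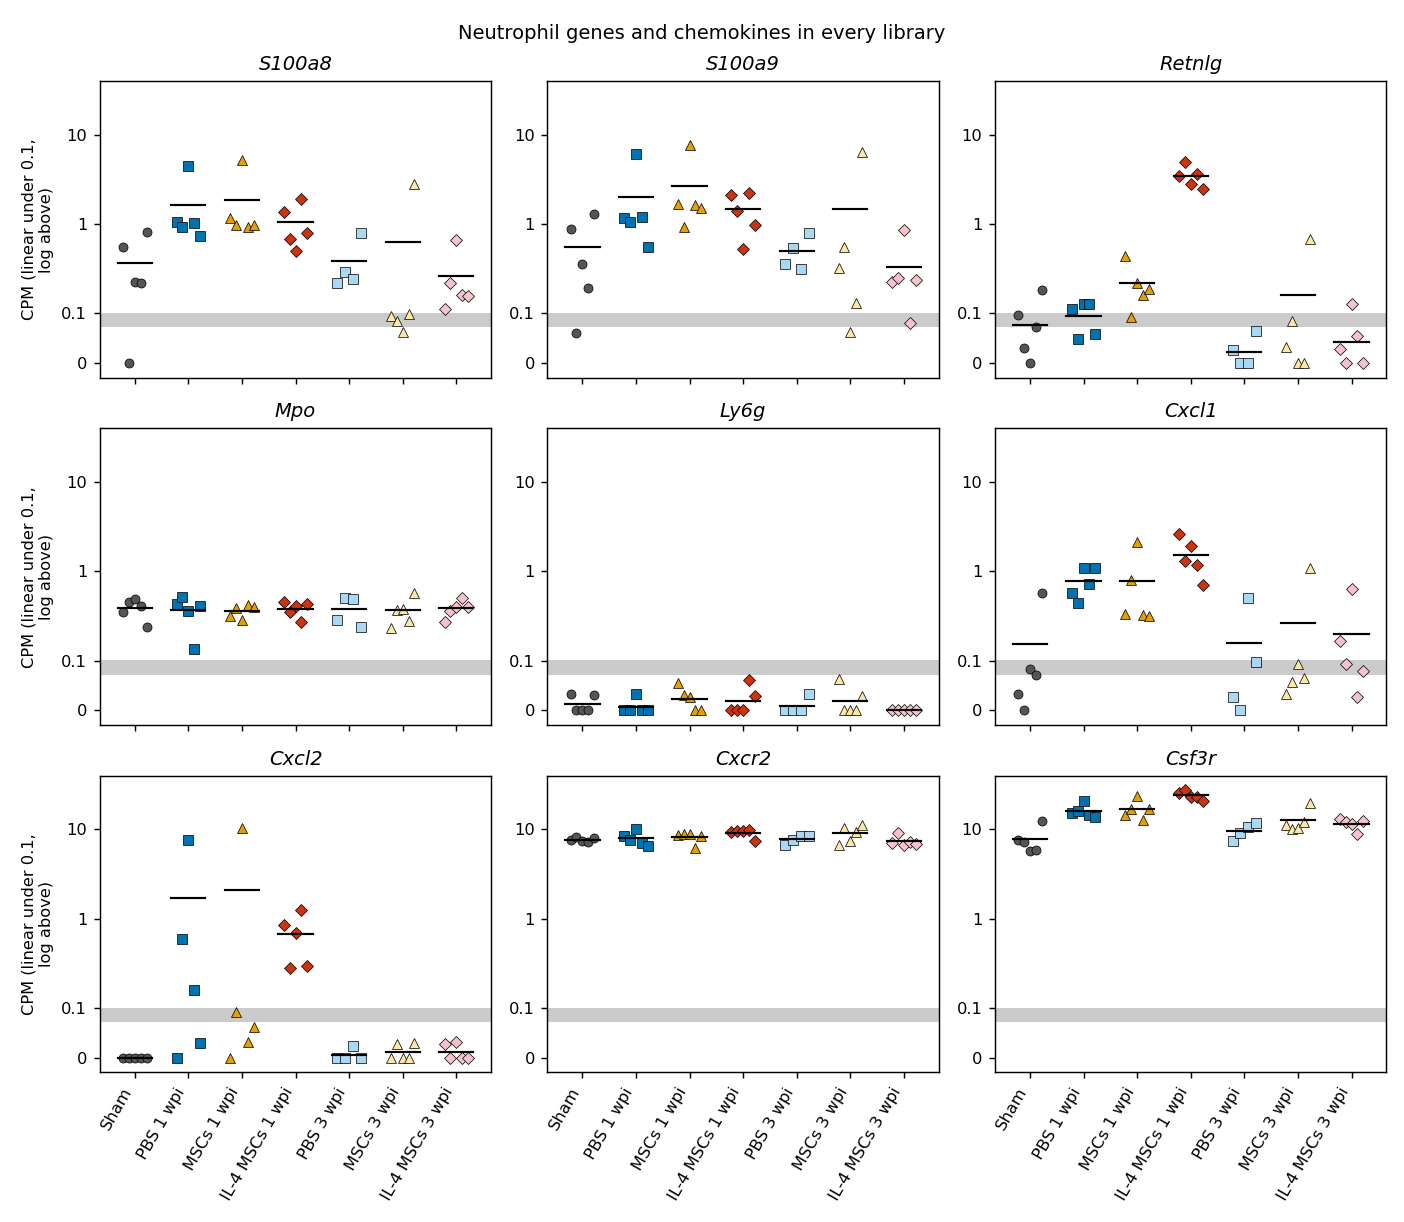
CPM of each of the 9 genes (vertical axis, linear under 0.1 and log above) in each of the 34 libraries, by group (horizontal axis), with 1 point per mouse, a bar at the group mean and a grey band at the floor of 3 counts. Csf3r in the IL-4 MSCs libraries at 1 wpi (20.7 to 27.6 CPM) lies above every library of the other groups except MSCs replicate 3 at 1 wpi (23.5 CPM), Retnlg stands clear of the floor in all 5 of them, and Mpo and Cxcr2 stay level across the 7 groups.

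The 9 genes lie on 7 chromosomes, with 2 pairs of neighbours. S100a8 (chr3:90668978-90670035, plus strand) and S100a9 (chr3:90692632-90695721, minus strand) are 22596 bases apart, and Cxcl1 (chr5:90891241-90893115) and Cxcl2 (chr5:90903871-90905938), both on the plus strand, are 10755 bases apart, all on GRCm38. The promoters of both pairs are printed because neighbours are compared with each other below. Each runs from 250 bases before to 50 bases after the start site annotated by RefSeq on GRCm38.p6, 5′ to 3′ on the gene's own strand, with matches on either strand to TATAAA (the TATA box) and to ATAAAAG, which can overlap it, in capitals. All 9 genes had a promoter in that table.
Cxcl1 (chr5:90890995-90891294, plus strand): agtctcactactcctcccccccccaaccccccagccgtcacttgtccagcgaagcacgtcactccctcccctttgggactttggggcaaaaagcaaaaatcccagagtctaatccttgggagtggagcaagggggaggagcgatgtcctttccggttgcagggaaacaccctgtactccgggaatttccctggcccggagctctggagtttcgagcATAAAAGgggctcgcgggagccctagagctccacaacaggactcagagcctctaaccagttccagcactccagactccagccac
Cxcl2 (chr5:90903649-90903948, plus strand): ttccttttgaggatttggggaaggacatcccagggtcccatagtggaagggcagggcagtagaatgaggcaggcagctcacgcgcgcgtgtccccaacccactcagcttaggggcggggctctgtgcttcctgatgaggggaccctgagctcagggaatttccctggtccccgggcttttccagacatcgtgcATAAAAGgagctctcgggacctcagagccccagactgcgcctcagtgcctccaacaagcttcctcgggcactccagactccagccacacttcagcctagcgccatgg
S100a8 (chr3:90668821-90669120, plus strand): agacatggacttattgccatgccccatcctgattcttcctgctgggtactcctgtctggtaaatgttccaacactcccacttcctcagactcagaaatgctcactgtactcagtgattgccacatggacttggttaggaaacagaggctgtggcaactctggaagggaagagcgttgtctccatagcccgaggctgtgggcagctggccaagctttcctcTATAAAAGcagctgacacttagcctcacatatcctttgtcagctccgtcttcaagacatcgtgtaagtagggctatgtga
S100a9 (chr3:90695672-90695971, minus strand): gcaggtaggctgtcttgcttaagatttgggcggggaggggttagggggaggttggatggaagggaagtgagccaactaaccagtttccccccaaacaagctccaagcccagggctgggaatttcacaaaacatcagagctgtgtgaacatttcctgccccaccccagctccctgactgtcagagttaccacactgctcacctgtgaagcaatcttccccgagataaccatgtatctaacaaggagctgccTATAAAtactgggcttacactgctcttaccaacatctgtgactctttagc

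ATAAAAG stands once in each chemokine promoter, with its first base at -34 from the start site of Cxcl1 and at -57 from that of Cxcl2, and it is in 5.42% of 32851 mouse promoters of this length. The longest identical run of the 2 chemokine promoters is 20 bases. S100a8 and S100a9, whose promoters share a run of no more than 11 bases, both hold TATAAA, at -30 in S100a8 and at +1 in S100a9, against 13.6% of all promoters. ATAAAAG overlaps it in S100a8, at -29. These matches are descriptions of letters in a window and not binding sites.

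S100a8 was measured in Sham at 0.552, 0, 0.223, 0.217 and 0.824 CPM (replicates 1 to 5). At 1 wpi it read 1.05, 0.933, 4.48, 1.04 and 0.737 CPM after PBS and 1.17, 0.989, 5.24, 0.935 and 0.970 CPM after MSCs. In the IL-4 MSCs mice it read 1.37, 0.678, 0.494, 1.92 and 0.801 CPM. Most injured mice at 1 wpi thus lay near 1 CPM, replicate 3 of PBS and of MSCs lay far above their fellows, and only the MSCs group cleared every Sham library. The rise passed the test after MSCs (log2 fold change 2.34 ± 0.82 SE, edgeR adjusted p = 0.044). It did not pass after PBS (2.15 ± 0.82, edgeR adjusted p = 0.081, range over all alternatives 0.019 to 0.35) or IL-4 MSCs (1.47 ± 0.85, edgeR adjusted p = 0.19). Without the 3 libraries that stood apart among the injured mice, the change was 1.47 after MSCs (edgeR adjusted p = 0.047, range over all alternatives 0.0081 to 0.29), and the rise after IL-4 MSCs passed as well (edgeR adjusted p = 0.015, range 0.015 to 0.37). None of these 3 libraries is in Sham or in IL-4 MSCs at 1 wpi, so the latter call came through the shared fit and not through the mice compared. The call after MSCs was lost in 8 of 48 alternatives. Among these were the removal of MSCs replicate 3 alone (1.46, edgeR adjusted p = 0.28), the removal of any 1 of Sham replicates 1 to 4, and Sham mice of the same week only.

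S100a9, the partner subunit, gave nearly the same picture at slightly higher CPM. The Sham mice had 0.877, 0.0615, 0.362, 0.193 and 1.31 CPM, a mean of 0.561 ± 0.522 (SD). At 1 wpi the means were 2.01 ± 2.29 CPM with PBS, 2.69 ± 2.81 CPM with naïve MSCs and 1.46 ± 0.738 CPM with IL-4 MSCs (SD, n = 5 each). Replicate 3 again carried the high values, at 6.08 CPM after PBS and 7.69 CPM after MSCs, and the other 13 mice of that time point had between 0.524 and 2.23 CPM. All 3 groups overlapped with Sham, and none of the 3 differences passed the test (edgeR adjusted p = 0.18, 0.067 and 0.26). Over all alternatives these values ranged from 0.071 to 0.64, 0.017 to 0.36 and 0.040 to 0.42, and 0, 4 and 1 of 47 alternatives passed. At 3 wpi both genes were back among the Sham values, except in MSCs replicate 5, which had 2.84 CPM of S100a8 and 6.35 CPM of S100a9 where the other 4 mice had at most 0.0981 and 0.561 CPM. Over all 34 libraries the 2 genes ran together with a Pearson r of 0.94 on log2 CPM, and of 0.93 once each group's mean was taken off, values that share library and depth.

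**Figure D2:**
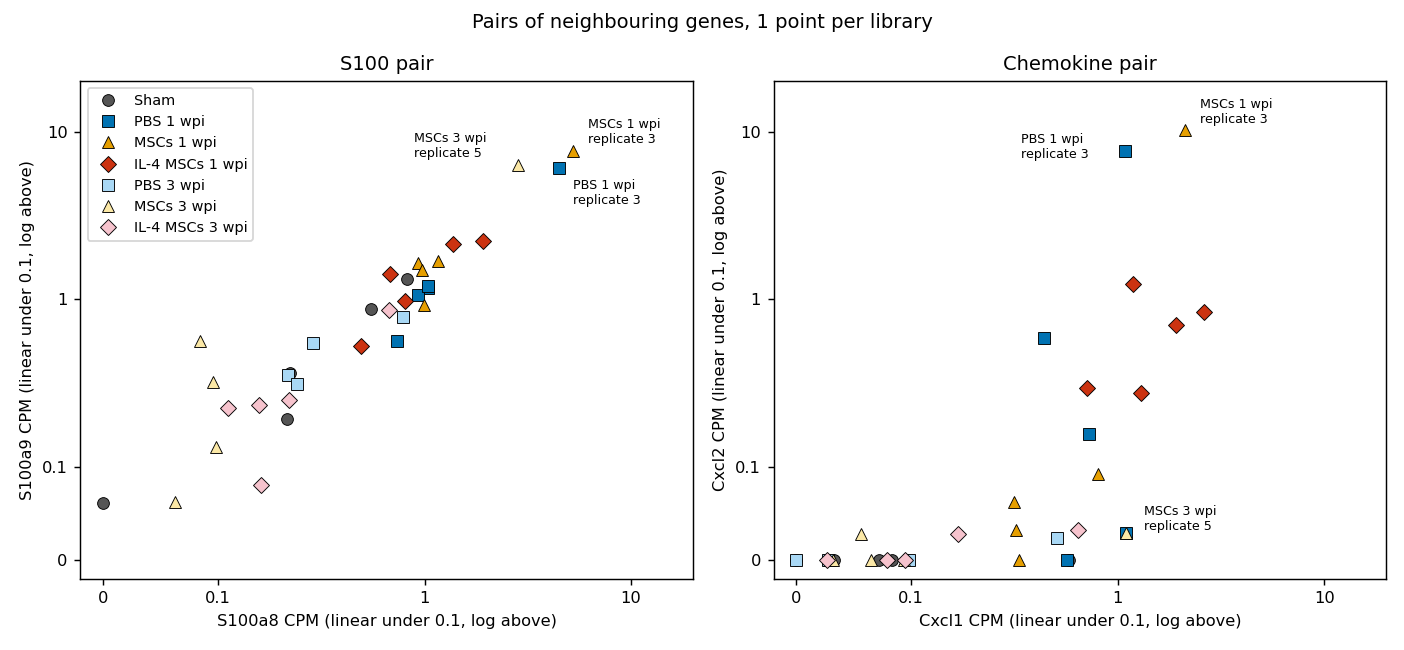
CPM of S100a9 against S100a8 (left) and of Cxcl2 against Cxcl1 (right), on axes that are linear under 0.1 and logarithmic above, with 1 point per library marked by group. The S100 pair follows a line (r = 0.94 on log2 CPM) and the chemokine pair scatters more (r = 0.69), with PBS replicate 3 and MSCs replicate 3 at 1 wpi far above the rest for Cxcl2.

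Retnlg separated 1 group from all the others. The 5 IL-4 MSCs mice at 1 wpi had 3.46, 4.94, 2.84, 3.68 and 2.49 CPM, from 103, 175, 97.5, 119 and 84.0 estimated counts. Sham had 0.0975, 0.0307, 0, 0.0722 and 0.183 CPM, PBS at 1 wpi 0.111, 0.0491, 0.128, 0.126 and 0.0589 CPM, and MSCs at 1 wpi 0.444, 0.0927, 0.217, 0.161 and 0.188 CPM. The lowest IL-4 MSCs mouse was above the highest mouse of every other group, MSCs replicate 5 at 3 wpi (0.689 CPM) included. On the log2 scale the difference was 5.40 ± 0.60 from Sham (edgeR adjusted p = 9.2e-09), 5.10 ± 0.58 from PBS (edgeR adjusted p = 7.3e-08) and 3.91 ± 0.51 from MSCs (edgeR adjusted p = 1.3e-06). By 3 wpi the IL-4 MSCs mice had 0.0280, 0, 0.128, 0.0537 and 0 CPM, a fall of 6.25 ± 0.66 on the log2 scale (edgeR adjusted p = 4.5e-09).

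**Figure D3:**
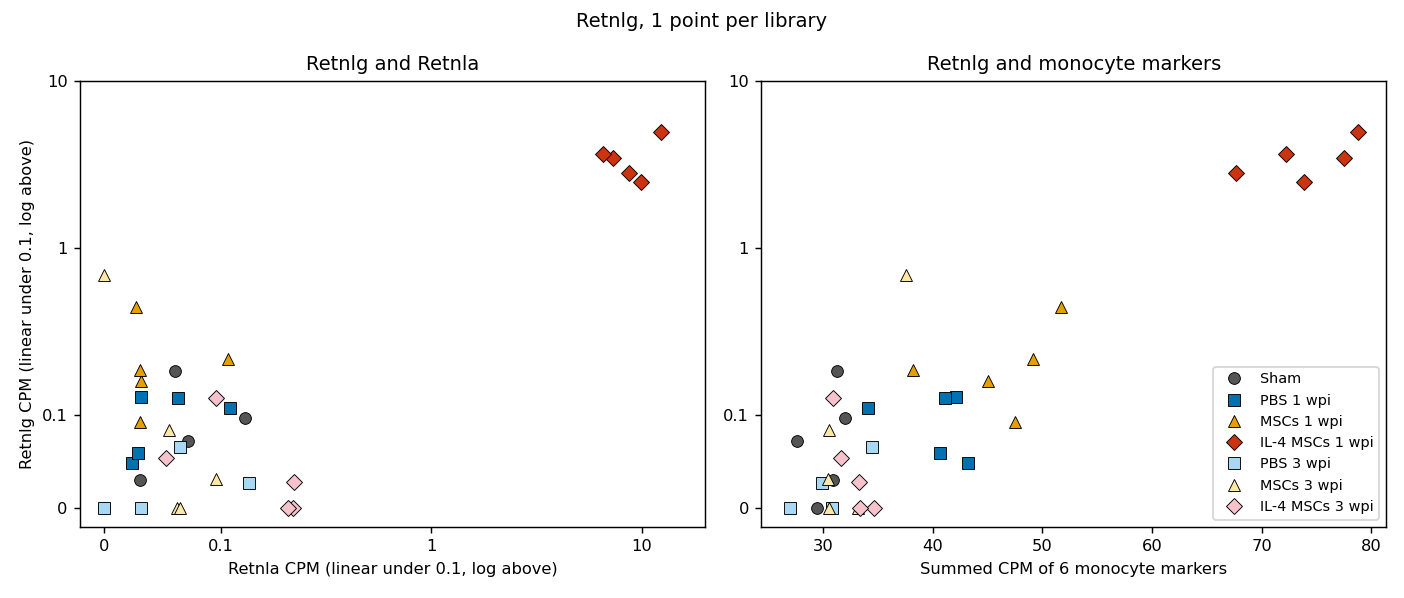
CPM of Retnlg (vertical axis, linear under 0.1 and log above) against CPM of its paralog Retnla (left, same kind of axis) and against the summed CPM of 6 monocyte markers (right, linear axis), with 1 point per library marked by group. The 5 IL-4 MSCs libraries at 1 wpi form a cloud of their own in both plots, at 2.49 to 4.94 CPM of Retnlg, 6.52 to 12.3 CPM of Retnla and 67.6 to 78.8 CPM of monocyte markers.

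Retnla, the resistin family member that IL-4 induces in macrophages, had the same single high group. Its mean there was 8.95 ± 2.29 CPM (SD, n = 5), and no other library passed 0.224 CPM. In MSCs replicate 5 at 3 wpi, the highest Retnlg library outside that group, Retnla was at 0. Of the 563 distinct 31-base words in the Retnlg transcript, the word length kallisto uses by default, 31 (5.51%) also occur in Retnla and in no other protein-coding gene. Reads from that stretch fit both genes, and the share of words does not measure how many counts were assigned between them. The Retnlg value is uncertain by an amount that was not tested. Markers of other cell types were higher too in the group where Retnlg was high. Of all genes, 18.4% rose there against Sham and 20.6% were separated from Sham upward without overlap. In the IL-4 MSCs group at 1 wpi, 6 of 6 monocyte markers and 6 of 6 macrophage markers rose against Sham by the edgeR test, and their summed levels ran from 67.6 to 78.8 CPM (27.6 to 32.0 CPM in Sham) and from 269 to 390 CPM (20.8 to 40.3 CPM in Sham). Summed red blood cell markers ran from 73.6 to 266 CPM in that group against 1.94 to 19.3 CPM in Sham, although only 1 of those 5 genes rose, Hba-a2, and its near-identical copy Hba-a1 fell. Endothelial markers (4 of 4 rose) ran from 211 to 270 CPM against 152 to 172 CPM in Sham, eosinophil markers (2 of 4 tested rose) from 5.14 to 7.0 CPM against 2.11 to 2.92 CPM, and platelet markers (2 of 2 tested rose) from 4.27 to 6.43 CPM against 2.27 to 2.79 CPM, all without overlap. The eosinophil granule gene Prg2 (1 to 4 counts) and the platelet gene Ppbp (0 to 6 counts) stayed near the floor there. T cell markers (3 of 5 rose) ran from 6.39 to 10.6 CPM against 2.33 to 7.65 CPM. Some lists also rose where Retnlg was at or near the detection level. Monocyte markers rose for 3 of 6 genes after PBS and 6 of 6 after MSCs at 1 wpi. Macrophage markers rose for 4 of 6 after each, against 8.73% and 11% of all genes, whereas no endothelial or T cell marker rose. After IL-4 MSCs at 3 wpi 4 of 6 macrophage and 4 of 5 T cell markers rose, but no monocyte marker, with 4.27% of all genes called in either direction. The part of these cells and of blood in the Retnlg values was not tested.

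No difference in Mpo passed the test in any comparison. Its group means lay between 0.361 and 0.387 CPM in all 7 groups, from 4.25 to 21.2 estimated counts per library. Sham read 0.348, 0.451, 0.495, 0.405 and 0.236 CPM and IL-4 MSCs at 1 wpi 0.453, 0.354, 0.406, 0.271 and 0.436 CPM, fully overlapping. The difference of IL-4 MSCs from Sham was -0.08 ± 0.28 on the log2 scale (edgeR adjusted p = 0.86). Ly6g, the sorting marker, had 0 counts in 23 of the 34 libraries and at most 2 in the others. Two-sided exact permutation tests of its CPM gave p from 0.40 to 1 over 15 comparisons (smallest adjusted p = 1), and at this depth no difference was detectable. Of its 911 31-base words, 56 (6.15%) also occur in other genes, most of them in Ly6i and Ly6c1, so its few counts are uncertain as well.

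Among the ligands of CXCR2, Cxcl1 was barely detected in Sham, at 0.0325, 0, 0.0836, 0.0722 and 0.580 CPM, and rose in the IL-4 MSCs group at 1 wpi, at 2.61, 1.30, 1.92, 1.18 and 0.712 CPM. All 5 of those mice lay above all 5 Sham mice, and the difference was 3.25 ± 0.82 on the log2 scale (edgeR adjusted p = 0.0021). PBS mice at 1 wpi had 0.570, 0.442, 1.09, 0.727 and 1.09 CPM and MSCs mice 0.333, 0.804, 2.12, 0.322 and 0.313 CPM, and each of these groups overlapped with Sham only through Sham replicate 5. Against Sham they differed by 2.31 ± 0.86 (edgeR adjusted p = 0.074) and 2.31 ± 0.86 (edgeR adjusted p = 0.061). With Sham replicate 5 left out the differences became 3.84 (edgeR adjusted p = 0.015, range over all alternatives 0.015 to 0.16) and 3.85 (edgeR adjusted p = 0.011, range 0.011 to 0.33). IL-4 MSCs did not differ from PBS (0.94 ± 0.66, edgeR adjusted p = 0.38) or from MSCs (0.94 ± 0.66, edgeR adjusted p = 0.47) beyond the spread. In the IL-4 MSCs mice Cxcl1 fell between 1 and 3 wpi to 0.168, 0.0942, 0.639, 0.0268 and 0.0786 CPM, by 2.91 ± 0.79 on the log2 scale (edgeR adjusted p = 0.0046), without overlap.

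Cxcl2 had 0 counts in all 5 Sham libraries. At 1 wpi it had 0, 24, 239, 5 and 1 estimated counts after PBS (0, 0.589, 7.63, 0.158 and 0.0295 CPM) and 0, 3, 376, 1 and 2 after MSCs (0, 0.0927, 10.2, 0.0322 and 0.0626 CPM). In both groups replicate 3 therefore held most of the signal, and the other MSCs mice were at or under the floor. The IL-4 MSCs mice were even, at 0.838, 0.278, 0.698, 1.24 and 0.297 CPM, every one of them above every Sham mouse. Against the floor of 3 counts per library, the group means were at least 19.2-fold higher than Sham after PBS, at least 23.8-fold after MSCs and at least 7.67-fold after IL-4 MSCs. The test passed for PBS (edgeR adjusted p = 0.020) and MSCs (edgeR adjusted p = 0.010) and narrowly missed for IL-4 MSCs (edgeR adjusted p = 0.0501). Those calls turned over when the high libraries were removed. Without PBS replicate 3 the PBS value was an edgeR adjusted p of 0.25 (range over all alternatives 0.00052 to 0.25), and without MSCs replicate 3 the MSCs value was 0.55 (range 0.00023 to 0.55). Without both and MSCs replicate 5 at 3 wpi the IL-4 MSCs value was 9e-06 (range 9e-06 to 0.19), a change that came through the shared fit, since no Sham or IL-4 MSCs library was removed. The bounds rested on the same libraries, since without replicate 3 the PBS mean was at least 2.22-fold higher than Sham (0.194 CPM, n = 4) and the MSCs mean lay under the floor (0.0469 CPM), while the IL-4 MSCs mean without its highest mouse was still at least 6.04-fold higher. At 3 wpi no library had more than 0.0319 CPM. Reads that fit both Cxcl2 and Cxcl3 were possible, since 80 of the 1859 31-base words of Cxcl2 (4.3%) occur in Cxcl3.

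Cxcr2, the receptor of both chemokines, was level. Sham mice had 7.51, 8.13, 7.34, 7.19 and 8.08 CPM and IL-4 MSCs mice at 1 wpi 9.39, 9.47, 9.55, 9.77 and 7.39 CPM, of which 4 lay above every Sham mouse and 1 did not. Group means ran from 7.43 to 9.11 CPM over the 7 groups. No comparison passed the test, and the difference of IL-4 MSCs from Sham was 0.18 ± 0.12 on the log2 scale (edgeR adjusted p = 0.28). Of its 31-base words, 284 of 3039 (9.35%) also occur in transcripts of other genes, 418 of them, so reads from those stretches fit other genes as well.

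Csf3r, the G-CSF receptor of neutrophils and other myeloid cells, rose in all 3 injured groups at 1 wpi. Sham read 7.66, 7.23, 5.68, 5.87 and 12.2 CPM, PBS 15.4, 16.2, 20.5, 14.5 and 13.9 CPM, MSCs 14.5, 17.0, 23.5, 12.8 and 17.0 CPM, and IL-4 MSCs 25.6, 27.6, 23.1, 22.9 and 20.7 CPM. No injured mouse of that time point lay as low as any Sham mouse, and every IL-4 MSCs mouse lay above every PBS mouse, though not above MSCs replicate 3. Against Sham the log2 fold changes were 1.03 ± 0.19 (edgeR adjusted p = 0.00023), 1.09 ± 0.19 (edgeR adjusted p = 7.5e-05) and 1.57 ± 0.19 (edgeR adjusted p = 5e-08). IL-4 MSCs exceeded PBS by 0.54 ± 0.18 (edgeR adjusted p = 0.037), a call lost in 7 of 47 alternatives, 6 of them the removal of 1 PBS or IL-4 MSCs mouse, and exceeded MSCs by 0.47 ± 0.18, which did not pass (edgeR adjusted p = 0.11). At 3 wpi the means were 9.66 ± 1.84 CPM after PBS (SD, n = 4) and 11.6 ± 1.62 CPM after IL-4 MSCs (SD, n = 5), and the MSCs mice had 11.2, 10.1, 10.2, 12.1 and 19.9 CPM. Csf3r fell over time by 0.72 ± 0.20 after PBS (edgeR adjusted p = 0.026) and by 0.99 ± 0.18 after IL-4 MSCs (edgeR adjusted p = 7.8e-05), without overlap in either. After MSCs the change was -0.39 ± 0.18 (edgeR adjusted p = 0.26), and MSCs replicate 5 at 3 wpi lay above 4 of the 5 mice of 1 wpi. Without that mouse Csf3r fell by 0.61 ± 0.18 after MSCs as well (edgeR adjusted p = 0.025, range over all alternatives 0.025 to 0.62), and without MSCs replicate 3 at 1 wpi the change was -0.24 ± 0.19 (edgeR adjusted p = 0.62). Summed microglial markers moved the same way, at 204 to 243 CPM in Sham, 309 to 403 CPM after PBS, 330 to 368 CPM after MSCs and 326 to 411 CPM after IL-4 MSCs at 1 wpi. Between IL-4 MSCs and PBS these overlapped, whereas summed macrophage markers (269 to 390 against 61.7 to 115 CPM) and monocyte markers (67.6 to 78.8 against 34.1 to 43.2 CPM) were higher in every IL-4 MSCs mouse. By edgeR 6 of 6 genes of each of these lists were higher than after PBS, where 11.2% of all genes were. The part of these cells in the Csf3r values was not tested.

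Between genes, levels were set side by side per length (median TPM, the deposited measure of transcript abundance, which allows for transcript length and depth). In Sham the order was Cxcr2 (5.26 TPM), Csf3r (4.79), S100a9 (2.33), S100a8 (1.55), Mpo (0.457), Retnlg (0.374) and Cxcl1 (0.196), with Cxcl2 and Ly6g at 0. After IL-4 MSCs at 1 wpi Retnlg led with 17.7 TPM (12.7 to 24.5 over the 5 mice), next to Csf3r with 14.8 TPM (13.5 to 17.3), and these ranges overlap. S100a9 (8.73 TPM, 3.31 to 14.3), Cxcr2 (6.58, 5.21 to 6.74) and S100a8 (5.52, 3.38 to 13.3) followed with overlapping ranges, then Cxcl1 (3.36), Cxcl2 (1.52) and Mpo (0.362), and Ly6g stayed at 0.

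Against Sham at 1 wpi, which asks what injury and injection did together, 2 of the 8 tested genes rose after PBS (Csf3r and Cxcl2), where 8.73% of all genes tested rose. After MSCs 3 of 8 rose (S100a8, Csf3r and Cxcl2) against 11% of all genes, and after IL-4 MSCs 3 of 8 rose (Cxcl1, Csf3r and Retnlg) against 18.4%. None of the 8 fell, where 5.03%, 6.89% and 18.5% of all genes did. Groups were fully separated upward for 1 of them after PBS (8.09% of all genes), 2 after MSCs (11.3%) and 4 after IL-4 MSCs (20.6%). The median log2 fold change of the 8 was 1.43, 1.87 and 1.52, while that of all genes was -0.0054, -0.0082 and -0.018. The 3 comparisons share the Sham mice and are not independent of each other. Retnlg and Cxcl2 passed the filter only through the IL-4 MSCs libraries at 1 wpi, so the counts and medians of the 8 are descriptions. Without the 3 injured libraries that stood apart, 3, 2 and 6 of the 8 passed, where S100a8, S100a9 and Cxcl2 joined the IL-4 MSCs count. These libraries were picked after their values were seen, and Sham replicate 5 was kept. None of them is in Sham or in IL-4 MSCs at 1 wpi, so the added calls there came through the fit shared by all groups. The share of all genes under this alternative is not given here, so 3, 2 and 6 are descriptions only.

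**Figure D4:**
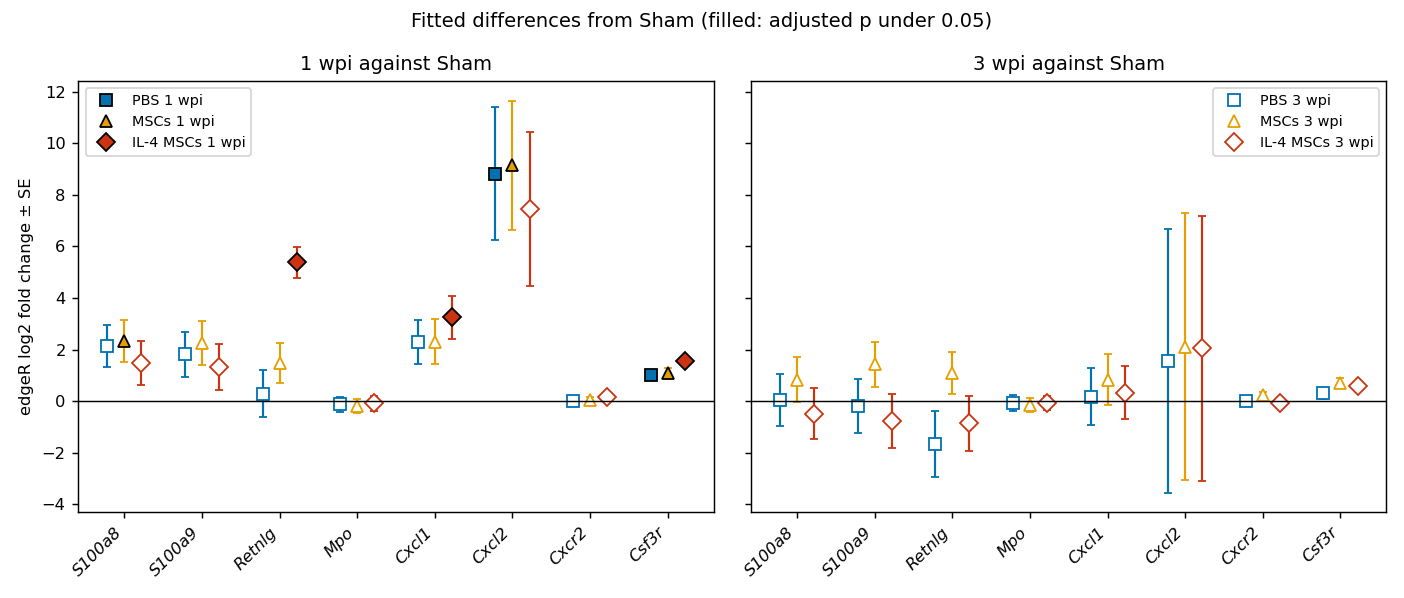
Log2 fold change against Sham (points) with its standard error (bars) of the 8 tested genes in the edgeR fit, at 1 wpi (left) and 3 wpi (right) for each treatment, filled where the adjusted p was under 0.05. At 1 wpi Retnlg is filled for IL-4 MSCs only and Csf3r for all 3 treatments, at 3 wpi no point is filled, and the Cxcl2 points depend on the prior count of the fit because Sham was at 0.

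At 3 wpi none of the 8 differed from Sham by edgeR after PBS, MSCs or IL-4 MSCs, where 0.0292%, 1.15% and 4.27% of all genes were called in either direction. At an unadjusted p under 0.05 there were 0, 1 and 1, in both cases Csf3r, against 914, 1886 and 3408 of all 17131 genes. DESeq2 called 0, 1 and 1 and limma-voom none in any of these comparisons. The Csf3r differences at 3 wpi were 0.71 ± 0.19 after MSCs (edgeR adjusted p = 0.062) and 0.58 ± 0.19 after IL-4 MSCs (edgeR adjusted p = 0.080). Both passed without Sham replicate 5, at 0.93 (edgeR adjusted p = 0.0041, range over all alternatives 0.0041 to 0.38) and 0.80 (edgeR adjusted p = 0.011, range 0.011 to 0.47).

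Between treatments at 1 wpi, which asks what the cells and their transfection with IL-4 mRNA added, 2 of 8 were higher after IL-4 MSCs than after PBS (Csf3r and Retnlg, with 11.2% of all genes higher). Against MSCs 1 of 8 was higher (Retnlg, with 7.66%). The MSCs were not transfected, so IL-4 and transfection cannot be told apart here. The other 6 differed from PBS by -1.36 to 0.94 on the log2 scale with edgeR adjusted p from 0.38 to 0.95. Naïve MSCs and PBS differed in none of the 8 by edgeR, DESeq2 or limma-voom, with 0.123% of all genes called by edgeR. At an unadjusted p under 0.05 there were 0 of the 8, against 774 of all 17131 genes. At 3 wpi no pair of treatments differed in any of the 8 by edgeR, DESeq2 or limma-voom, with 2.94% of all genes called for IL-4 MSCs against PBS, 3.47% for IL-4 MSCs against MSCs and 0.0817% for MSCs against PBS. At an unadjusted p under 0.05 there were 0, 3 and 1 of the 8, against 2895, 3074 and 981 of all 17131 genes.

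From 1 to 3 wpi, 1 of the 8 fell after PBS (Csf3r, with 4.90% of all genes lower), 1 after MSCs (Cxcl2, with 4.93%) and 3 after IL-4 MSCs (Csf3r, Cxcl1 and Retnlg, with 16.6%). Full separation downward was seen for 4 of the 8 after IL-4 MSCs, Cxcl2 being the fourth, and for 18.0% of all genes. The Cxcl2 fall after MSCs, from a mean of 2.08 ± 4.55 CPM to 0.0114 CPM (edgeR adjusted p = 0.034, range over all alternatives 0.0055 to 0.87), rested on replicate 3 and was 0.87 without it. In its place S100a8, S100a9 and Retnlg fell after MSCs when the 3 libraries that stood apart, picked after the values of these genes were seen, were left out. Whether a treatment difference itself changed between the time points was tested as a contrast of differences. Only Retnlg passed, for IL-4 MSCs against MSCs (5.87 ± 1.05 on the log2 scale, edgeR adjusted p = 0.00035, with 5.96% of all genes called higher), and without MSCs replicate 5 at 3 wpi this value was 3.57 (edgeR adjusted p = 0.15). None of the 8 passed for IL-4 MSCs against PBS by edgeR (0 at an unadjusted p under 0.05, 1 by DESeq2 and 1 by limma-voom, and 4.72% of all genes) or for MSCs against PBS (0 by each, and 0.0% of all genes). Of all 17131 genes, 3001 and 572 had an unadjusted p under 0.05 in these contrasts.

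Other genes of the same pathways were counted from lists, with the 9 genes themselves left out of each. Of 12 other neutrophil granule genes 8 were tested, and 4 rose after IL-4 MSCs at 1 wpi against Sham: Mmp8, the neutrophil collagenase (4.58 ± 0.67, edgeR adjusted p = 1.6e-06), Padi4, the enzyme behind chromatin traps (2.94 ± 0.45, edgeR adjusted p = 3.5e-06), Mmp9, a gelatinase (0.91 ± 0.21, edgeR adjusted p = 0.0010), and Lcn2, an iron-siderophore binder that astrocytes also make (4.35 ± 1.22, edgeR adjusted p = 0.0050). After PBS and after MSCs 1 of the 8 rose, Mmp8. Lcn2 was not called there, though it read 7.22 to 20.6 CPM after PBS and 3.33 to 37.9 CPM after MSCs at 1 wpi. Sham replicate 5 had 7.14 CPM of Lcn2 and the other Sham mice at most 0.292 CPM, and the part of that mouse in the missed calls was not tested. The primary granule genes Elane and Ctsg never passed 3 counts in any library. Lcn2 reached 104 CPM in MSCs replicate 5 at 3 wpi, where the other 4 mice of that group had at most 0.954 CPM. Of 10 other neutrophil marker genes 8 were tested, and 4, 4 and 5 rose after PBS, MSCs and IL-4 MSCs, with Slfn4 at 4.97 ± 0.70 (edgeR adjusted p = 7.7e-07) in the last. None of either list fell.

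Of 4 other chemokines of the ELR class, those that bind CXCR2, 2 were tested, and 1, 1 and 2 rose. Cxcl5 rose in every injured group at 1 wpi by 1.24 to 1.30 on the log2 scale, and Cxcl3 had 0.267 to 1.37 CPM in the IL-4 MSCs mice and at most 1 estimated count in Sham (edgeR adjusted p = 0.011). Cxcl3 also read 1.93 CPM in MSCs replicate 3 and 1.03 CPM in PBS replicate 3 at 1 wpi, with at most 0.0982 CPM in the other mice of those groups. Of 7 other CXC chemokines tested, 3 rose after PBS and 4 after MSCs and after IL-4 MSCs, led by Cxcl16 (2.97 ± 0.19, edgeR adjusted p = 8.6e-14) and Cxcl10 (5.63 ± 0.48, edgeR adjusted p = 3.2e-11) after IL-4 MSCs. Of the same 7, 1 fell after PBS, 0 after MSCs and 1 after IL-4 MSCs. The last was Cxcl12, which retains neutrophils in marrow and fell there by 0.66 ± 0.08 (edgeR adjusted p = 1.7e-07). Of 6 other tested receptors for neutrophil attractants 3, 3 and 4 rose, among them the complement receptors C3ar1 (3.80 ± 0.23, edgeR adjusted p = 1.9e-14) and C5ar1 (3.53 ± 0.38, edgeR adjusted p = 4.2e-09) and the leukotriene receptor Ltb4r1 (3.72 ± 0.41, edgeR adjusted p = 7.4e-09), all of which macrophages carry too.

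On the G-CSF axis 4 of 5 other tested genes rose in each injured group, with Stat3, which the receptor activates, at 0.77 ± 0.07 (edgeR adjusted p = 4.3e-10) and its feedback inhibitor Socs3 at 2.34 ± 0.27 (edgeR adjusted p = 1.4e-08) after IL-4 MSCs. Csf3, the ligand, did not pass the filter on low counts. Of 7 genes by which cells sense S100A8 and S100A9, 4, 3 and 6 rose, with Tlr4 at 1.98 ± 0.14 (edgeR adjusted p = 1.1e-12) and Cd14 at 1.62 ± 0.35 (edgeR adjusted p = 0.00040). Among 10 other S100 genes, 7, 8 and 8 rose, S100a4 by 3.31 ± 0.23 (edgeR adjusted p = 3.6e-13) and S100a6 by 2.09 ± 0.13 (edgeR adjusted p = 6.6e-14) after IL-4 MSCs, and 1 fell in each, S100a5, named after its values were seen. Of 11 genes for adhesion and entry 5, 5 and 9 rose, and of 8 genes that NF-kB induces 5, 5 and 8 rose, with Itgb2, the shared leukocyte integrin chain, at 2.57 ± 0.24 (edgeR adjusted p = 2.2e-10) and Nfkb2 at 1.49 ± 0.16 (edgeR adjusted p = 3.2e-09). These counts stand against the same 8.73%, 11% and 18.4% of all genes.

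The genes whose log2 CPM ran most like each of the 9 over the 34 libraries differed from one to the next. Cxcl1 ran most like Lcn2 (r = 0.93) and Icam1 (r = 0.90), and Cxcl2 most like Il1rn (r = 0.93) and Cxcl3 (r = 0.93). Csf3r was closest to the leukocyte genes Fyb (r = 0.97) and Itgb2 (r = 0.97). Retnlg had Tgm2 (r = 0.96), a gene that IL-4 induces in macrophages, Pecam1 (r = 0.96) and Mrc1 (r = 0.93) among its nearest 5, and no neutrophil gene of the lists above. Retnlg was at or near the detection level in every group but IL-4 MSCs at 1 wpi, so these r mostly rank genes that were high in that 1 group. Which cells made Retnlg was not tested. With each group's mean taken off, the nearest to Retnlg were Lrg1 (r = 0.81), Tgm2 (r = 0.80) and Podxl (r = 0.79), Pecam1 and Mrc1 left the first 5, and its r was 0.74 with S100a9 and 0.70 with S100a8. MSCs replicate 5 at 3 wpi stood clear of its group for all 3 of these genes, and its part in these r was not tested. S100a8 had S100a9 and then Cd14 (r = 0.85), while Cxcr2 (highest r = 0.75) and Mpo (0.67) had no close companion. All of these values share libraries and depth, and are descriptions.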

How the data were processed

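The authors trimmed 50 bp paired reads with cutadapt 2.4, checked them with FastQC 0.11.8 and quantified them with kallisto 0.46 on protein-coding GENCODE transcripts of GRCm38, per the labels and the study's methods. The deposited table gives estimated counts and TPM per gene and library. Its fold changes and p- and q-values, from the authors' sleuth 0.30 comparisons, were not used. 1 PBS library at 3 wpi that the authors excluded was not analysed.

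Here CPM was each estimated count over its library's total (29838423 to 41554322). For tests, counts were rounded to whole numbers and fitted with edgeR 4.0.16 in R 4.3.3 (quasi-likelihood, TMM, filterByExpr by group, all 34 libraries in 1 fit), with SE = |log2 fold change| / square root of F. The step was tested on simulated data. Ly6g, which failed the filter, was tested by exact permutation of CPM. Log2 CPM for correlations used a prior count of 2. Replicates were separate mice, and 66 pairs within groups all differed by more than sampling noise (chi-square per gene 3.27 to 52.4), so none was merged.

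The 9 genes and the lists were chosen with earlier results of these data known. Named were the 9 genes, up to 4 genes per list with the smallest p for IL-4 MSCs at 1 wpi against Sham, the 5 genes most alike to each, and markers that moved with a result. Genes named outside that rule are said to be so or are neighbours in sequence. Alternatives changed the normalization, filter, test (DESeq2 1.42.0, limma-voom 3.58.1), rounding, dispersion, Sham group, libraries, fold threshold and covariates. Promoters are from RefSeq on GRCm38.p6 and 31-base words from 58797 protein-coding GENCODE transcripts.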

Additional observations from a re-analysis of the deposited data

Results flagged for a closer look

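In 61 combinations of gene and group with 4 or 5 mice, the gap of the highest or lowest mouse to its neighbour was tested against Dixon's critical value, and 23 passed it. That value lets about 1 in 20 groups pass for normal data, which untransformed CPM are not. A group with 1 library above 0 passes by construction, as did Ly6g in PBS at 1 and 3 wpi and Cxcl2 in PBS at 3 wpi. The combinations also share libraries, so the count of 23 is a description and not an excess over chance. The causes were not tested, and many of the values lie near the floor of 3 counts.

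PBS replicate 3 at 1 wpi was the highest of 5 mice for S100a8 (4.48 CPM), S100a9 (6.08 CPM), Cxcl2 (7.63 CPM) and Ly6g (0.0320 CPM, from 1 count). MSCs replicate 3 at 1 wpi was the highest for S100a8 (5.24 CPM), S100a9 (7.69 CPM), Cxcl1 (2.12 CPM) and Cxcl2 (10.2 CPM). MSCs replicate 5 at 3 wpi was the highest for S100a8 (2.84 CPM), S100a9 (6.35 CPM), Cxcl1 (1.09 CPM), Csf3r (19.9 CPM) and Retnlg (0.689 CPM).

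IL-4 MSCs replicate 3 at 3 wpi was the highest for S100a8 (0.671 CPM), S100a9 (0.862 CPM) and Cxcl1 (0.639 CPM). Sham replicate 5 was the highest for Cxcl1 (0.580 CPM). PBS replicate 4 at 3 wpi was the highest of 4 mice for S100a8 (0.786 CPM) and Ly6g (0.0328 CPM), and PBS replicate 3 at 3 wpi for Cxcl2 (0.0241 CPM). Cxcr2 was lowest in MSCs replicate 4 at 1 wpi (6.25 CPM) and in IL-4 MSCs replicate 5 at 1 wpi (7.39 CPM), and highest in IL-4 MSCs replicate 2 at 3 wpi (9.14 CPM).

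Between IL-4 MSCs and naïve MSCs, the Retnlg difference exceeded at 1 wpi that of 3 wpi by 5.87 on the log2 scale, by a test of the difference itself (edgeR adjusted p = 0.00035, range over all alternatives 1.0e-05 to 0.17). It did not pass without MSCs replicate 5 at 3 wpi.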

How the results depend on the processing

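Of the 17 differences of single genes that passed the test, tried under 806 alternatives in all, 764 stayed on their side of the threshold, 42 no longer passed and 0 changed sign. Csf3r against Sham at 1 wpi in all 3 groups, Cxcl1 and Retnlg after IL-4 MSCs against Sham and over time, and Retnlg after IL-4 MSCs against PBS and against MSCs passed in every alternative run. The cause of the changes below was not tested, except that fewer libraries or a fold threshold by their construction change what can pass.

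Leaving out 1 library at a time, the number of genes called against Sham at 1 wpi ran from 1 to 4 after PBS (2 with all libraries), 1 to 5 after MSCs (3) and 3 to 4 after IL-4 MSCs (3), and at 3 wpi was 0 after PBS and 0 to 1 after MSCs and after IL-4 MSCs (0 in each). For IL-4 MSCs against PBS at 1 wpi it ran from 1 to 2 (2), against MSCs from 1 to 2 (1). Over time it ran from 0 to 2 after PBS (1), 0 to 5 after MSCs (1) and 3 to 5 after IL-4 MSCs (3), and for the change of the IL-4 MSCs against MSCs difference from 0 to 1 (1).

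With Sham mice of the same week only, 1 gene passed after PBS and 1 after MSCs at 1 wpi. With the red blood cell score as covariate, and with DESeq2, 1 passed after MSCs and 1 after IL-4 MSCs at 3 wpi. DESeq2 also gave 2 for PBS over time and 1 for the change of the IL-4 MSCs against PBS difference, for which limma-voom gave 1 too, and limma-voom gave 2 for IL-4 MSCs against MSCs at 1 wpi. A log2 fold change of at least 1 left 1 for IL-4 MSCs against PBS and 0 for PBS over time. Robust dispersion, and a fit of only the 2 groups compared, gave 0 for MSCs over time, and the latter 6 for IL-4 MSCs over time. With the 3 libraries that stand apart left out, an alternative added after the data were seen, the counts were 6 for IL-4 MSCs at 1 wpi and 1 at 3 wpi against Sham, 3 for IL-4 MSCs against MSCs at 1 wpi, 2, 3 and 6 over time after PBS, MSCs and IL-4 MSCs, and 0 for the change of the IL-4 MSCs against MSCs difference.

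Replicate numbers do not pair the mice here: over 99 same-numbered pairs the correlation of deviations from the group means ran from -0.46 to 0.40 (median 0.012), 24 passed 0.1, and 5 libraries correlated best with their own number. With the replicate number as a block, 2 genes passed for PBS over time and 5 for IL-4 MSCs over time, and 3, 4 and 4 against Sham at 1 wpi. At 3 counts or fewer, changes of Cxcl2, Cxcl1 and Retnlg among Sham and 3 wpi mice were not detectable at this depth.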

Other observations

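Because PBS replicate 3 and MSCs replicate 3 at 1 wpi shared the high Cxcl2 values, the genes higher in both than in any of the other 32 libraries were counted, by a rule set after the data were seen. Of 16274 genes with at least 10 counts in both, 7 exceeded the highest other library by 2-fold or more, and 2 of these, Acod1 and Cxcl2, by 4-fold or more. Acod1, which makes itaconate in activated macrophages, read 8.28 and 7.99 CPM against at most 1.10 CPM elsewhere. Il1b, the inflammatory cytokine, read 5.31 and 7.09 CPM against at most 2.25 CPM, and Il1rn, which encodes the antagonist of its receptor, 10.5 and 13.7 CPM against at most 4.64 CPM. The others were Clec4e, Ccl3 and Hcar2. S100a8 missed the 2-fold mark because of MSCs replicate 5 at 3 wpi (2.84 CPM). These 2 mice come from different treatments, and nothing in the labels sets them apart from their groups.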
